A study of Mus musculus with 7 samples.

Results

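Lung eosinophils of saline-challenged BALB/c mice, isolated by cell sorting, were profiled in 4 libraries, named here saline replicates 1 to 4. They were chosen by their titles and make up 4 of the 7 libraries of the series. The 3 libraries from OVA-challenged lungs are not used. The labels name no allele and no agent other than saline for these 4, and they give no age, sex, number of doses, time after challenge or sort gate. RNA was extracted with RNeasy columns, amplified with an Ovation system and labelled with biotin, and each library went to 1 Affymetrix mouse gene 1.0 ST array. Nothing in the labels says whether the 4 libraries came from separate animals or from pools, so their spread may be technical in part.

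Eosinophils are granulocytes of the bone marrow that enter tissues and store cationic proteins in large secretory granules. The major basic protein Prg2, the peroxidase Epx and the eosinophil-associated ribonucleases fill those granules. Interleukin-5 keeps the cells alive through the receptor chain Il5ra and the shared chain Csf2rb, and eotaxins draw them into tissue through the chemokine receptor Ccr3. In the lung they are known for lipid mediators, made with the lipoxygenase Alox15, and for the inhibitory lectin Siglecf.

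The level of a gene is its log2 value after robust multi-array averaging (RMA), given as mean ± SD over the 4 libraries. A gene's rank is the place of its mean among 18226 named genes, with 1 the highest. Probe sets bind their targets with different strength, so a rank orders array signal and not RNA copies. Each gene was also set against background in the same library. The stricter threshold was the 95th percentile of 5222 negative control probe sets, which lay at 9.33 ± 0.096 (n = 4). With limma and a threshold of 0.05 on the p adjusted by the Benjamini-Hochberg method, 1444 genes (7.92%) lay above that threshold, 15896 (87.2%) lay below it and 886 (4.86%) passed in neither direction. A looser threshold, added after the data were seen, was the 95th percentile of 1077 olfactory receptor genes, which serve smell in the nose and lay at a median of 5.01 ± 0.20. It stood at 6.70 ± 0.24, and 7219 genes (39.6%) were called above it. The negative control threshold is a strict one, because the 1324 positive control probe sets had a median of 8.52 ± 0.21, below it. The olfactory threshold is lax, since 12 of 76 homeobox, PAX, SOX and T-box genes passed it. At the low end, 4178 genes (22.9%) lay at or under the negative control median of their library, on average 5.91, in all 4 libraries, which is called negative control level below.

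**Figure D1:**
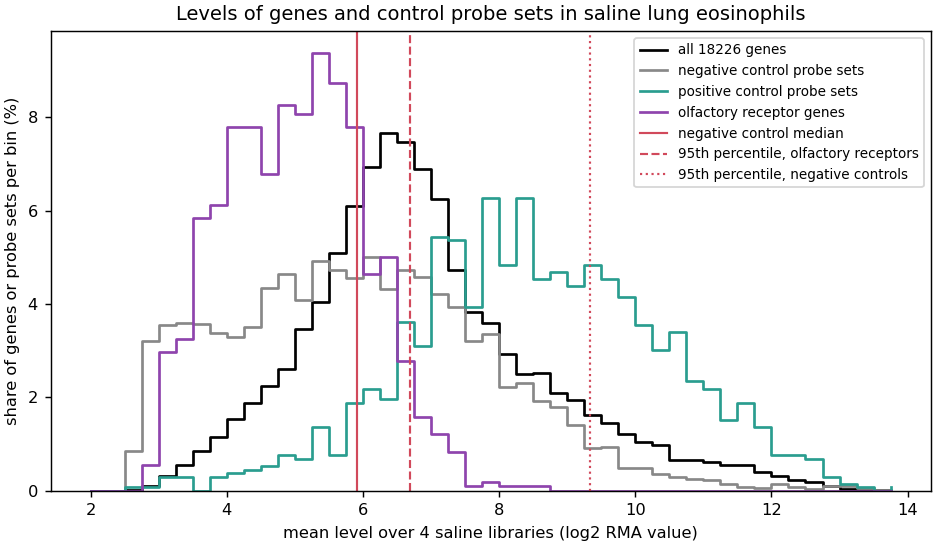
Share of genes, control probe sets and olfactory receptor genes (%) in each bin of mean level over the 4 saline libraries (log2 RMA value). The vertical lines mark the negative control median (5.91), the olfactory threshold (6.70) and the negative control threshold (9.33), each averaged over the libraries, and the olfactory receptor genes lie mostly left of the first line.

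Of the 5 defining eosinophil genes, Alox15, Ccr3 and Prg2 were among the 216 highest genes of the array. Alox15 read 12.23, 12.14, 12.34 and 12.27 in saline replicates 1 to 4 (rank 108). The eotaxin receptor Ccr3 read 11.90, 11.96, 12.05 and 11.99 (rank 174). The granule protein Prg2 read 11.66, 11.61, 12.18 and 11.87 (rank 216). For each of these genes the 4 libraries lay within 0.57 of each other. They stood above the negative control threshold by 2.91, 2.64 and 2.50 log2, with limma adjusted p of 8.7e-08 for Alox15, 8.97e-08 for Ccr3 and 1.8e-06 for Prg2. Siglecf, which the deposited annotation calls Siglec5, read 9.51, 9.15, 9.42 and 9.27 (rank 1818). Its mean stood 0.0051 above the negative control threshold (SE 0.10, limma adjusted p = 0.963), which is neither above nor below. Against the olfactory threshold it stood 2.64 higher (limma adjusted p = 8.89e-07). Il5ra, the chain that binds interleukin-5, read 8.68, 8.80, 9.34 and 9.53 (rank 2166), higher in saline replicates 3 and 4 than in replicates 1 and 2. It did not pass either way against negative controls (-0.24, SE 0.18, limma adjusted p = 0.232) and passed the olfactory threshold by 2.39 (limma adjusted p = 1.74e-05). All 5 defining genes were thus called above the olfactory threshold, and 3 of 5 above the negative control threshold. Siglecf and Il5ra were called above the 90th percentile of negative controls.

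The promoters of the defining receptors are shown because GATA1, the factor known in mice to direct eosinophil development, binds sites with the core GATAA. Sequences are from RefSeq (build GRCm38.p6), run 5′ to 3′ on the strand of the gene and cover 250 bases before to 50 bases after its start. A match to GATAA is in capitals, and 3 of the 5 genes had an entry. Siglecf lies at chr7:43351091-43351390 on the plus strand, Ccr3 at chr9:124021721-124022020 on the plus strand and Il5ra at chr6:106748988-106749287 on the minus strand.
Siglecf: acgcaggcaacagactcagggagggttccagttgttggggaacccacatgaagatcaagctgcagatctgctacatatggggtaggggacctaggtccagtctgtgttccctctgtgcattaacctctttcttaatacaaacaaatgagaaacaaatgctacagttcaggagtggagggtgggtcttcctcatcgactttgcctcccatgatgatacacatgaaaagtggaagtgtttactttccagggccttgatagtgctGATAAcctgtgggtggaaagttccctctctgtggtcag
Ccr3: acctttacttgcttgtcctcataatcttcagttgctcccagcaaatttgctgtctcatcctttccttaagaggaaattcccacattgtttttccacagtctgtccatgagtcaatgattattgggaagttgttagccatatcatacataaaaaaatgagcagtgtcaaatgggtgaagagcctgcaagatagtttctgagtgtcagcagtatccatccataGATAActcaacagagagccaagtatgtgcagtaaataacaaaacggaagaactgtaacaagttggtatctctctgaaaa
Il5ra: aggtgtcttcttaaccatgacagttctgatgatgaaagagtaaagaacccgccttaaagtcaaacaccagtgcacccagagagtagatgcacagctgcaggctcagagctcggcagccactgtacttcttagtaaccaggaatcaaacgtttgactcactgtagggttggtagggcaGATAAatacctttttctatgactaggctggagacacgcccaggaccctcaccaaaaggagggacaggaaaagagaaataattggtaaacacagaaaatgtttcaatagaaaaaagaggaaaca
Each of the 3 windows holds 1 match to GATAA on either strand (TTATC being its complement) and 0 matches to TTGCNNAA, a core of C/EBP sites. Over 13654 promoters of measured genes, 21.6% held GATAA and 9.71% held TTGCNNAA. The share with GATAA was 22.5% among the 71 of the 100 highest genes with an entry, 16.6% of 1095 genes called above the negative control threshold and 34.3% of 3057 genes at negative control level. These are counts of letters and not of bound sites.

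Most granule genes gave a strong signal, with 3 of them, Srgn, Cd63 and Snap23, among the 100 highest genes. Of 18 measured granule genes, 14 were called above the negative control threshold and 4 below it, against 7.92% above over all genes. The list holds general genes of secretion and lysosomes, such as Snap23, Vamp8, Stx4a, Lamp1 and Lamp2, beside the eosinophil granule proteins. The median level of the list was 11.24, beside 6.68 for all genes. Serglycin, Srgn, the proteoglycan core that packs granule proteins, was the highest member at 13.09 ± 0.066 (rank 6). The granule membrane tetraspanin Cd63 read 12.36 ± 0.11, and the fusion protein Snap23 read 12.13 in saline replicate 1 and 12.40 to 12.43 in the others. The antimicrobial ribonucleases Ear1, Ear2, Ear10 and Ear6, read 12.10 ± 0.12, 11.92 ± 0.079, 11.49 ± 0.12 and 11.46 ± 0.17. These paralogs are nearly identical in sequence, so the probes may share signal and the separate values are uncertain. A second basic protein, Prg3, read 9.97, 9.74, 9.95 and 9.92, above the threshold in each library.

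Not every granule gene was high. Epx, the eosinophil peroxidase, read 6.44, 6.62, 6.65 and 6.58 (rank 9676), below the negative control threshold and not above the olfactory one (-0.12, limma adjusted p = 0.432). Rnase2b read 5.33 ± 0.13 and Rnase2a 4.32 ± 0.19, both at negative control level. On each of these 3 genes the libraries differed little. The other gene called below, Vamp7, differed more and read 6.92, 6.28, 7.97 and 7.95. The list of 18 thus splits into 14 genes with a mean of 9.90 or more and 4 with 7.28 or less, with no member between.

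**Figure D2:**
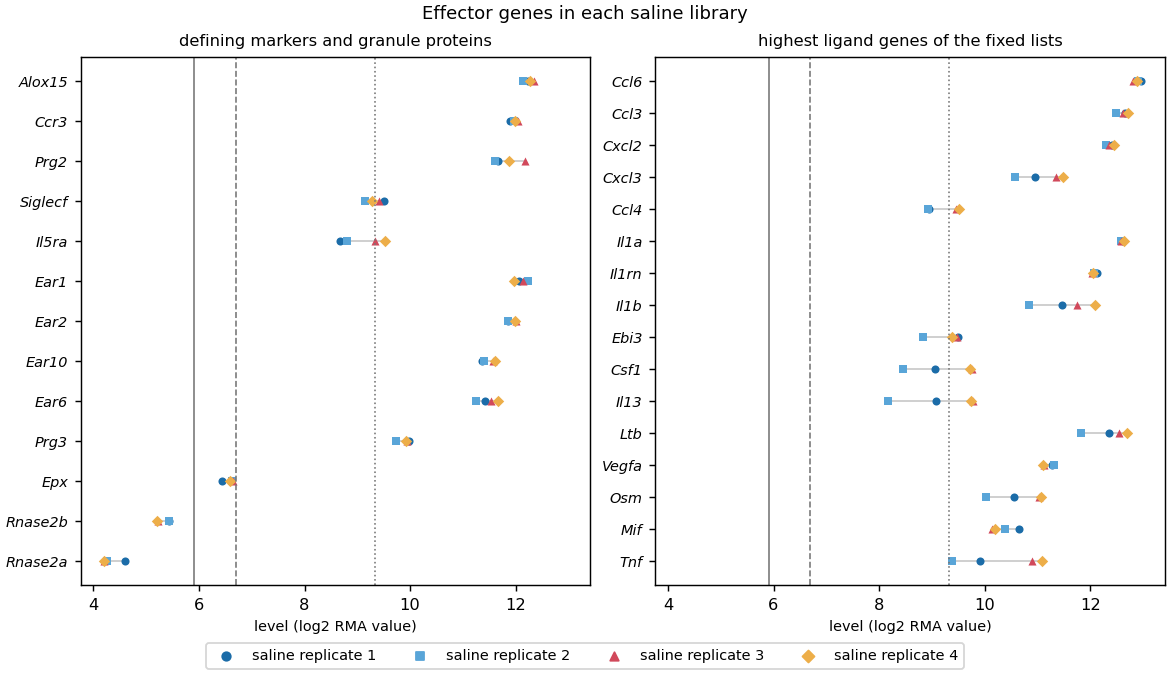
Level (log2 RMA value) of defining and granule genes (left) and of the highest ligand genes (right) in each saline library, with one symbol per library and a grey bar over their range. Solid, dashed and dotted lines mark the negative control median, the olfactory threshold and the negative control threshold; Epx, Rnase2a and Rnase2b lie left of the dashed line, and Tnf and Il13 spread over more than 1 log2.

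Among the highest signals of all genes were cytoskeletal and ribosomal ones. Beta-actin, Actb, ranked first in all 4 libraries at 13.52 ± 0.049, and the 28S ribosomal RNA Rn28s1 ranked second in all 4. Among the 25 highest genes stood other parts of the actin and myosin machinery (Actg1, Tpm4, Myl6, and the regulators Gmfg, Arhgdib and Rap1b) and 5 small-subunit ribosomal proteins. Over the array, 70 of 81 cytosolic ribosomal proteins were called above the negative control threshold, against 7.92% of all genes. Their median level was 11.95, beside 6.68 for all genes. Genes with a known role outside the cell or on its surface were also in this group. The matrix glycoprotein Thbs1 read 13.04 ± 0.095 (rank 8), the surface protein Fxyd5, which weakens cell adhesion, 13.12 ± 0.10 (rank 5), and the chemokine Ccl6 12.89 ± 0.067 (rank 16). Tissue transglutaminase, Tgm2, which crosslinks proteins, read 12.85 ± 0.056 (rank 23), and the iron store Fth1 read 13.02 ± 0.094 (rank 10).

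Some names in the top 25 need care. Siglece, an inhibitory lectin, ranked 7 at 13.05 ± 0.082 through a probe set that the deposited annotation ties to an unclassified cDNA clone. A second probe set of that name read 9.93, 8.87, 9.67 and 9.68, so the level of Siglece is uncertain. Gmfg (rank 20) also had a second probe set, which read 7.18, 7.02, 7.30 and 7.34, far under the 12.75, 12.78, 12.92 and 12.98 of the one used, and its level is uncertain too. Hbb-bt, a beta globin of red cells, ranked 9 and read 12.74, 12.88, 13.37 and 13.15. The alpha globin Hba-a1 read 11.71, 11.55, 12.42 and 12.07. Both globins were higher in saline replicates 3 and 4, and the other 8 measured erythroid and platelet markers were called below the negative control threshold. Of these, the heme enzyme Alas2 of red cell precursors (7.48, 7.18, 8.0 and 7.89) and the platelet chemokine Ppbp (6.83, 6.86, 7.55 and 7.37) were also higher in saline replicates 3 and 4. The part of red cell RNA in these libraries was not tested.

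Of 22 measured enzymes of lipid mediators, 6 were called above the negative control threshold (27.3%, against 7.92% of all genes), 15 below and 1, the thromboxane synthase Tbxas1, in neither direction. Tbxas1 was called below without saline replicate 4 and after a further quantile normalization. Beside Alox15, which oxygenates arachidonic acid, the 5-lipoxygenase partner Alox5ap read 12.21, 12.03, 12.30 and 12.36 (rank 113). The inducible cyclooxygenase Ptgs2 read 10.66, 10.75, 11.30 and 11.18, lower in saline replicates 1 and 2 than in 3 and 4. The phospholipase Pla2g4a, which frees arachidonic acid, read 10.01 ± 0.22, and the 5-lipoxygenase Alox5 read 9.88 ± 0.27. Leukotriene C4 synthase, Ltc4s, read 6.56 ± 0.072 and was not above the olfactory threshold. Alox12 and the prostaglandin dehydrogenase Hpgd were the lowest at 5.88 ± 0.12 and 5.74 ± 0.24.

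Cytokine genes with a strong signal included interleukin-1 genes, chemokines and TNF family genes. Over the ligand lists, 12 of 106 measured genes were called above the negative control threshold (11.3%), 85 below and 25 lay at negative control level, against 7.92% above and 22.9% at negative control level over all genes. Interleukin-1 alpha, Il1a, read 12.62, 12.59, 12.59 and 12.64 (rank 47). Its natural antagonist Il1rn read 12.12, 12.07, 12.03 and 12.06 (rank 150). Each lay within 0.09 across libraries, whereas interleukin-1 beta, Il1b, read 11.46, 10.84, 11.74 and 12.09 and spread over 1.25.

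Among chemokines, 4 of 36 were called above the negative control threshold, against 7.92% of all genes. Ccl3, a ligand of Ccr1, read 12.65, 12.48, 12.63 and 12.71, and the neutrophil attractant Cxcl2 read 12.41, 12.30, 12.36 and 12.45. Cxcl3, of the same group, read 10.96, 10.58, 11.35 and 11.49. Ccl4 passed in neither direction at 9.21 ± 0.32. The 2 lowest were Ccl8 (4.82 ± 0.10) and the lung chemokine Cxcl15 (4.43 ± 0.23), both at negative control level.

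In the list of TNF, TGF-beta and growth factors, 5 of 35 were above, against 7.92% of all genes. Lymphotoxin beta, Ltb, read 12.36, 11.82, 12.55 and 12.70 (rank 92), the vessel growth factor Vegfa read 11.28, 11.31, 11.12 and 11.11, and oncostatin M, Osm, read 10.56, 10.03, 11.02 and 11.06. Tnf read 9.92, 9.39, 10.90 and 11.08, with saline replicates 3 and 4 both above replicates 1 and 2. It was called above the threshold (0.99, SE 0.32, limma adjusted p = 0.0209) but not when saline replicate 3 or replicate 4 was left out. Cd40lg and Tnfsf8, ligands made by T cells, read 5.11 ± 0.017 and 4.44 ± 0.15, at negative control level.

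The type 2 cytokines Il13 and Il4, and also Il6, gave intermediate and uneven signal. Il13 read 9.08, 8.16, 9.77 and 9.74. Il4 read 7.83, 7.92, 9.24 and 9.41. Il6 read 8.40, 6.85, 8.92 and 9.45, so that its rank ran from 1989 to 8295 between libraries. None of these genes passed the negative control threshold in either direction (limma adjusted p of 0.655, 0.0675 and 0.0734), and all 3 were called above the olfactory threshold. Il4 was called below the negative control threshold without saline replicate 3 or without replicate 4, Il6 without replicate 4, and both after a further quantile normalization. Each was higher in saline replicates 3 and 4 than in replicates 1 and 2. Interleukin-5 itself, Il5, read 4.49 ± 0.053, and Il33 and Tslp, signals of injured epithelium, read 5.17 ± 0.084 and 4.43 ± 0.18, all at negative control level.

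Of 1341 genes annotated with receptor activity, olfactory ones aside, 78 were called above the negative control threshold (5.82%, against 7.92% of all genes). The receptor lists held 232 measured genes, of which 38 were above (16.4%), 178 below and 38 at negative control level. Among chemoattractant receptors, 4 of 22 chemokine receptors were above. Cxcr4, which answers the retention signal Cxcl12, read 12.01, 11.92, 11.96 and 12.03 (rank 171), next to Ccr3. Ccrl2, which holds chemerin at the cell surface, read 11.87, 11.80, 11.90 and 12.14. Ccr1 read 9.40, 9.60, 10.23 and 10.19 and was not called without saline replicate 3 or without replicate 4. Ccr7, the lymph node homing receptor, read 7.57 ± 0.16, and Cxcr5, its counterpart of B cell follicles, read 4.37 ± 0.093 at negative control level.

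Receptors for complement and lipids were led by C3ar1 and Ptafr. The complement C3a receptor C3ar1 read 11.57, 11.39, 11.70 and 11.87, and the platelet activating factor receptor Ptafr read 11.40, 11.17, 11.41 and 11.70. Gpr183, which senses oxysterols, read 9.89 ± 0.26, and these made up 3 of 36 called above. That share is close to the 7.92% of all genes. The C5a receptor C5ar1 read 9.69, 8.73, 10.48 and 10.57 and passed in neither direction (0.54, SE 0.34, limma adjusted p = 0.166), though it was called above without saline replicate 2 and after a further quantile normalization. Both cysteinyl leukotriene receptors, Cysltr1 (4.82 ± 0.029) and Cysltr2 (4.59 ± 0.033), were at negative control level. So was the histamine receptor Hrh4, at 5.55 ± 0.090. Ptgdr2, the prostaglandin D2 receptor known from human eosinophils, read 7.12 ± 0.18, below the negative control threshold and above the olfactory one.

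Among nucleotide receptors 2 of 19 were above, against 7.92% of all genes. The ATP-gated channel P2rx4 read 9.97, 10.03, 10.73 and 10.97, and the adenosine receptor Adora3 read 9.69, 9.43, 10.06 and 9.99. Adora3 was not called without saline replicate 1, 3 or 4, and the count of this list ran from 1 without any of these to 4 without replicate 2.

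Cytokine receptors had 12 of 58 members above the negative control threshold (against 7.92% of all genes), 42 below and 4 in neither direction. The interferon chain Ifnar2 read 11.55, 11.29, 11.31 and 11.31, and the chain Csf2rb, which pairs with Il5ra, read 11.39, 11.31, 11.26 and 11.35 (rank 412). Its near copy Csf2rb2, which in mice serves interleukin-3 alone, read 10.11 ± 0.056, and the 2 genes may share probe signal. Il2rg, the chain common to several interleukin receptors, read 10.96 ± 0.23, Il10rb 10.58 ± 0.37 and Ifngr1 10.46 ± 0.15. The GM-CSF receptor chain Csf2ra read 10.10 ± 0.14, and Il1rl1, the receptor of Il33, read 9.79, 9.55, 9.80 and 9.88, above the threshold in every library. Il4ra read 8.45 ± 0.41, below the threshold. Lepr and Il13ra2 were the lowest, at 4.12 ± 0.17 and 3.94 ± 0.13.

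The Siglec and paired immunoglobulin-like receptors, most of which restrain or tune myeloid cells, had 12 of 34 members above (35.3%, against 7.92% of all genes). That was the largest share of the 8 receptor lists. The median level of the 34 was 8.77, beside 6.68 for all genes. Lilr4b read 12.64, 12.84, 12.76 and 12.77 (rank 30), and the inhibitory Lilrb4a read 12.16, 12.31, 12.10 and 12.28 (rank 117). These are paralogs whose probes may share signal. Cd300lf, which binds lipids of dying cells, read 11.94 ± 0.083, and Sirpa, the receptor of Cd47, read 11.11 ± 0.12. Cd47 itself read 11.03 ± 0.17. At the other end, the basophil receptor Cd200r3 read 4.46 ± 0.19.

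In the remaining receptor families, the shares above were 3.85% of TNF receptors, 8.0% of pattern recognition receptors and 16.7% of Fc receptors. Over all genes the share was 7.92%. Of 26 TNF receptors, only Fas, which triggers cell death, was above, at 10.58, 10.40, 10.89 and 11.09. Of 25 pattern recognition receptors, the lectin Clec4d (11.01 ± 0.36) and the LPS coreceptor Cd14 (10.09 ± 0.66) were above, and Tlr7 (4.39 ± 0.32) and Tlr11 (4.60 ± 0.16) were lowest. Cd14 was not called without saline replicate 3 or without replicate 4. Of 12 Fc receptors, the signalling chain Fcer1g read 10.83, 10.30, 10.88 and 11.13 and Fcgr3 9.55 ± 0.048, while the IgE-binding chain Fcer1a read 4.68 ± 0.16, at negative control level. Fcgr3 was not called without saline replicate 1, 3 or 4.

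**Figure D3:**
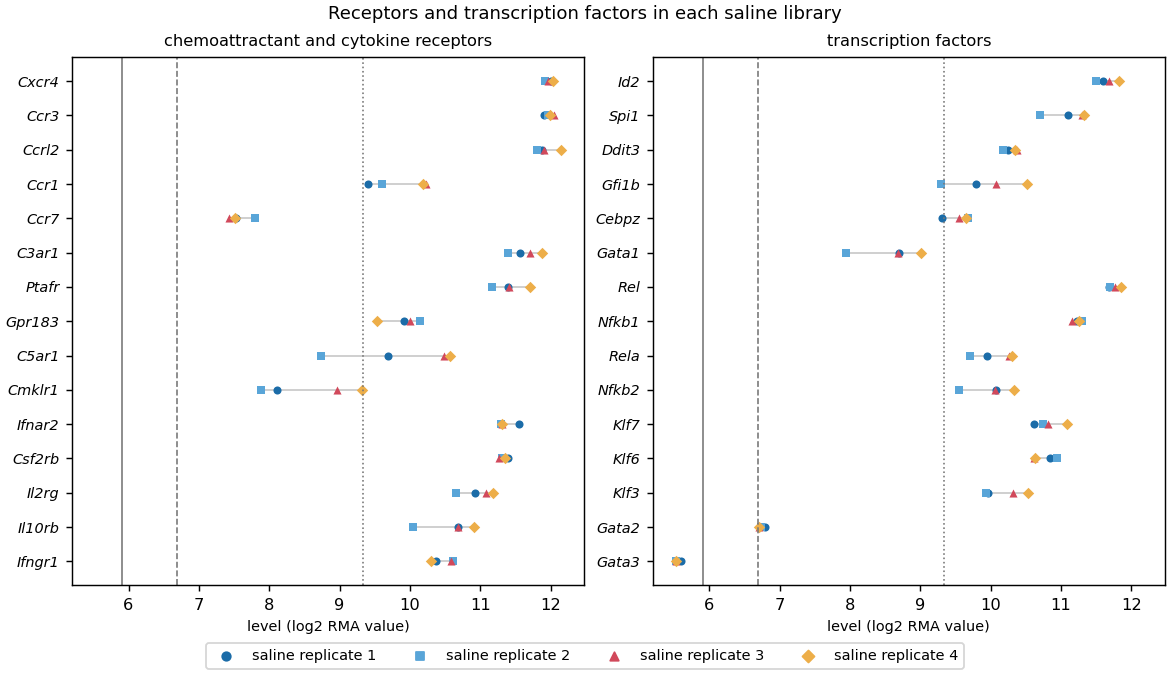
Level (log2 RMA value) of chemoattractant and cytokine receptors (left) and of transcription factors (right) in each saline library, with lines for the negative control median (solid), the olfactory threshold (dashed) and the negative control threshold (dotted). Cxcr4, Ccr3, Csf2rb, Rel and Nfkb1 had libraries close together, and C5ar1, Cmklr1 and Gata1 had the lowest value in saline replicate 2.

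Of 25 integrins, which hold cells to matrix and to other cells, 4 were above (16.0%, against 7.92% of all genes). The beta 2 chain Itgb2 read 11.19, 10.85, 11.44 and 11.48, and its partner Itgam read 11.23, 11.02, 11.13 and 11.29, followed by Itgb1 (10.59 ± 0.27) and Itgal (9.99 ± 0.31). In the list of selectins, sialomucins and immunoglobulin adhesion molecules, 7 of 19 were above (36.8%). Cd24a, a glycoprotein used to mark mouse eosinophils, read 12.76, 12.66, 12.45 and 12.72 (rank 44), and the tetraspanin Cd9 read 12.15 ± 0.17. The selectin ligand Selplg read 10.20 ± 0.36. The sialomucin Cd34 was the lowest of the list, at 5.98 ± 0.068.

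Of 15 measured genes of MHC class II and costimulation, which present antigen to T cells, 1 was called above the negative control threshold (6.67%, against 7.92% of all genes). Above the olfactory threshold were 8 of the 15, against 39.6% of all genes. The gene above the negative control threshold was Cd80, a costimulator of T cells, at 11.78, 11.90, 11.98 and 11.96 (rank 195). Its relative Cd86 read 7.61, 7.30, 7.40 and 7.73, between the thresholds, and the median of the list was 7.22, beside 6.68 for all genes. Among the class II genes, H2-Ab1 read 7.37 ± 0.25, Cd74 7.22 ± 0.54, H2-Eb1 7.06 ± 0.13 and H2-Aa 6.94 ± 0.19, and H2-DMa (5.57 ± 0.28) was at negative control level. The checkpoint ligand Cd274 read 9.51 ± 0.17 and passed in neither direction, but was called above without saline replicate 4.

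In the BCL2 family, which sets whether a cell lives or dies, 3 of 16 were above (18.8%, against 7.92% of all genes), the protective Bcl2a1d (12.03 ± 0.17) and Mcl1 (11.93 ± 0.087) and the death-promoting Bcl2l11 (10.57 ± 0.021). Bcl2a1d has near-identical copies that its probes may also read. The related Bcl2a1c, which the list does not hold, read 12.54 ± 0.16 (rank 56). It was called above and lay higher than every member of the list. Bcl2 itself read 6.39 ± 0.34. Of 25 cell cycle genes, only Pcna, the sliding clamp of DNA replication and repair, was above (4.00%), at 10.32, 10.11, 10.29 and 10.55. The others were called below, the kinases and kinesins of mitosis among them, with Kif11 at 4.91 ± 0.22 and Bub1 at 4.28 ± 0.23. Over the list, 3 of 25 were called above the olfactory threshold (12%, against 39.6% of all genes) and 6 lay at negative control level (24.0%, against 22.9%).

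**Figure D4:**
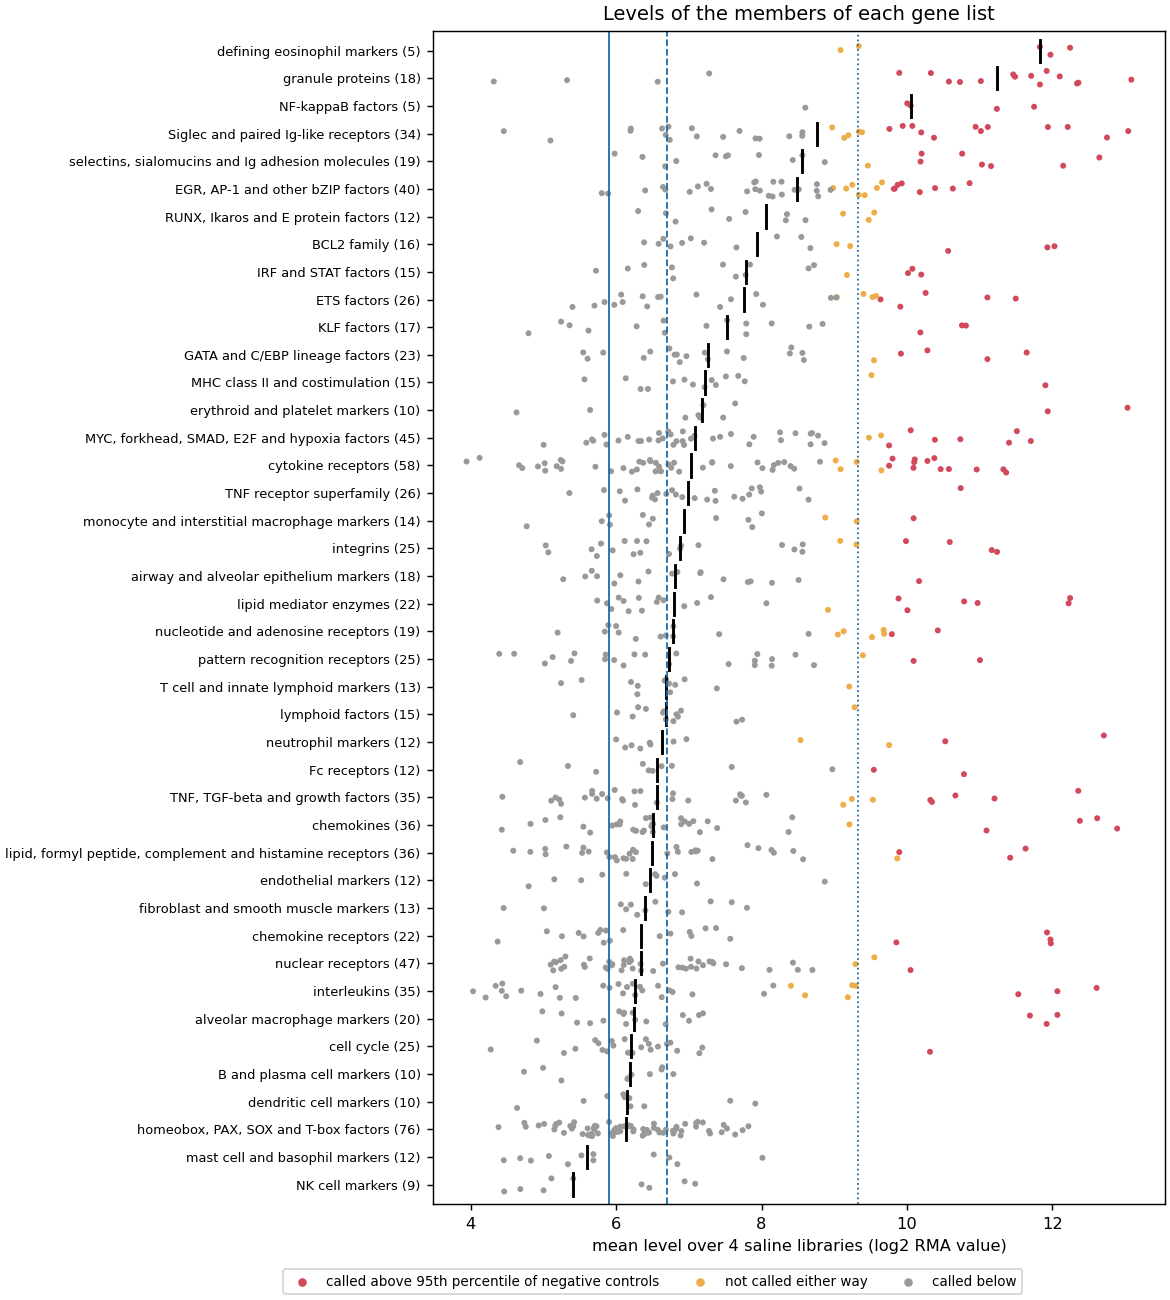
Mean level over the 4 saline libraries (log2 RMA value) of every measured member of each gene list, with the number measured in brackets and a black bar at the list's median. Colours give the limma call against the negative control threshold (dotted line), and the solid and dashed lines mark the negative control median and the olfactory threshold; granule genes and NF-kappaB factors have most of their members to the right of the dotted line.

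Transcription factors had 58 of 771 annotated genes above the negative control threshold (7.52%, against 7.92% of all genes). The NF-kappaB family, which drives inflammatory genes, had 4 of 5 members above. Rel read 11.68, 11.70, 11.77 and 11.85 (rank 238), Nfkb1 read 11.23, 11.30, 11.16 and 11.26, and Rela and Nfkb2 read 10.05 ± 0.28 and 10.01 ± 0.33. Relb, at 8.60 ± 0.28, was below. Among MYC, forkhead, SMAD, E2F and hypoxia factors, 7 of 45 were above, led by Mxd1, a MYC antagonist of resting and mature cells (11.61, 11.58, 11.74 and 11.89), its partner Max (11.51 ± 0.21) and the hypoxia factor Hif1a (11.38, 11.37, 11.45 and 11.42). Ahr, which senses aromatic ligands, read 11.01, 11.02, 10.42 and 10.49, and so was lower in saline replicates 3 and 4, opposite to Il5ra and Tnf.

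Eosinophil and myeloid lineage factors differed in signal, with Spi1 above the negative control threshold and Gata1 and Cebpe below it. Of 23 GATA, C/EBP and related factors, 4 were above (against 7.92% of all genes). These were Id2, an inhibitor of E proteins (11.59, 11.50, 11.68 and 11.82), Spi1, the myeloid factor PU.1 (11.10, 10.70, 11.30 and 11.33), Ddit3, a stress factor (10.28 ± 0.088), and Gfi1b (9.79, 9.29, 10.08 and 10.51). Gfi1b was not called without saline replicate 1, 3 or 4. Gata1 read 8.70, 7.94, 8.68 and 9.01, below the negative control threshold (-0.75, SE 0.20, limma adjusted p = 0.0092) and above the olfactory one by 1.89 (limma adjusted p = 0.000104). Cebpe, which is needed for granule formation, read 8.39 ± 0.26, also between the thresholds. Gata2 read 6.73 ± 0.043 and Gata3, the T cell member, 5.55 ± 0.035, the latter at negative control level.

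Among other factors with strong signal were Ets2 (11.50 ± 0.097), Nfil3 (10.86 ± 0.14), Klf7 (10.81 ± 0.19), Klf6 (10.76 ± 0.16) and Atf1 (10.63 ± 0.10). Counts above were 5 of 26 ETS, 8 of 40 AP-1 and other bZIP, 3 of 17 KLF and 3 of 15 IRF and STAT factors. Over all genes, 7.92% were above. The ETS count was 3 without saline replicate 1, where Elf4 and Fli1 were not called, and Elf4 was not called without replicate 3 or 4 either. Stat6, which relays interleukin-4, read 10.28, 9.58, 10.05 and 10.15. Of 47 nuclear receptors only Nr4a1, an immediate early gene, was above (10.05 ± 0.33), and the glucocorticoid receptor Nr3c1 (9.29 ± 0.057) passed in neither direction. No RUNX, Ikaros or E protein factor was above, and none of the 15 lymphoid factors. Without saline replicate 1, Nr4a3 (9.55 ± 0.18) and the Ikaros relative Ikzf2 (9.55 ± 0.20) were called above too.

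At the low end lay gene families with no known role in granulocytes. For comparison, 22.9% of all genes were at negative control level and 7.92% were above the negative control threshold. Of 1077 olfactory receptor genes, 756 were at negative control level and 0 were called above the negative control threshold. Of 102 genes annotated with pheromone receptor activity, 92 were at negative control level, with a median of 4.25. Among the 76 homeobox, PAX, SOX and T-box factors of body patterning, 0 were above and 26 were at negative control level, with Sox2, a stem cell factor, at 4.38 ± 0.13. The highest of them, Sox3, read 7.91, 7.86, 7.71 and 7.80. Of 29 genes annotated with unspecific monooxygenase activity, which clear drugs in the liver, 22 were at negative control level and 0 were above. In these families and in the other lists with 0 members above by limma, no gene passed at an unadjusted p under 0.05 either, and none lay above the threshold in each library. Annotated terms at the high end were rotary ATP synthases and pumps (18 of 34 above, median 9.77) and ribosomal structure (71 of 141 above, median 9.73).

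The 4 libraries were alike over most genes. The SD of a gene over the libraries had a median of 0.18, or 1.13-fold, and was 0.24 in the 4557 genes with the highest means. Pairs of libraries correlated at 0.974 to 0.990 across genes, which are not independent, with the closest pair saline replicates 3 and 4 and the widest replicates 2 and 4. The SD of the difference between a pair ran from 0.265 to 0.448, and pairs shared the same deposited value, to 2 decimals, in 292 to 565 genes. Saline replicates 1 and 2 also had a narrower spread across genes (SD 1.72 and 1.67, against 1.83 and 1.86) and parted positive from negative controls less well, with an area under the curve of 0.810 and 0.800 against 0.843 and 0.845. Their olfactory receptor genes were higher, with a 95th percentile of 6.79 and 6.99 against 6.54 and 6.46.

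Genes with the smallest spread among those 4557 included S100a11, a calcium-binding protein (12.97, 12.94, 12.97 and 12.96), Serinc3 (12.30, 12.33, 12.31 and 12.30), Itm2b (12.57, 12.58, 12.60 and 12.60) and the kinase Csnk1d (10.70, 10.72, 10.71 and 10.68). The transcript LOC622000 and the actin nucleator Actr3 completed these 6, with SDs of 0.0096 and 0.017. Each of the 6 stayed within 0.04 across libraries.

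A range of more than 1 log2, or 2-fold, was found in 1056 genes (5.79%), and in 49 of the 1444 genes called above the negative control threshold. Of these 1056, the highest value was in saline replicate 4 for 524 and in replicate 3 for 260, and the lowest value was in replicate 2 for 471 and in replicate 1 for 304. In 601 of them both saline replicates 3 and 4 lay above replicates 1 and 2, and in 175 both lay below. Without saline replicate 2 the count was 543 and without replicate 4 it was 589, as fewer libraries also give a narrower range.

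Of the 12 genes called above the negative control threshold with the largest SD, 10 were higher in both saline replicates 3 and 4 than in replicates 1 and 2. S100a9, one subunit of the neutrophil protein calprotectin, led with 9.63, 9.71, 11.42 and 11.35. The splicing protein Snrpd3 read 9.94, 9.46, 11.05 and 11.12, the membrane protein Emp3 11.12, 10.63, 12.07 and 12.30, and the lipolysis inhibitor G0s2 10.95 to 10.96 in replicates 1 and 2 and up to 12.21 in replicates 3 and 4. The decoy receptor of interleukin-1, Il1r2, read 9.30, 9.60, 10.71 and 10.75, and the heme enzyme Alas1 10.44, 9.45, 10.96 and 10.76. In the same set Cnih4, Cd14, Ifi27l2a and Tnf had this order of libraries too. The remaining 2 stood apart in 1 library each. The endosomal protein Dnajc13 was highest in saline replicate 2 (11.32, against 9.42 to 10.14), and was not called above when its 5 probe sets were averaged. The club cell protein Scgb1a1 was highest in replicate 3. S100a9, Snrpd3, Tnf, Il1r2, Cnih4, Cd14 and Ifi27l2a were not called above without saline replicate 3 or without replicate 4.

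**Figure D5:**
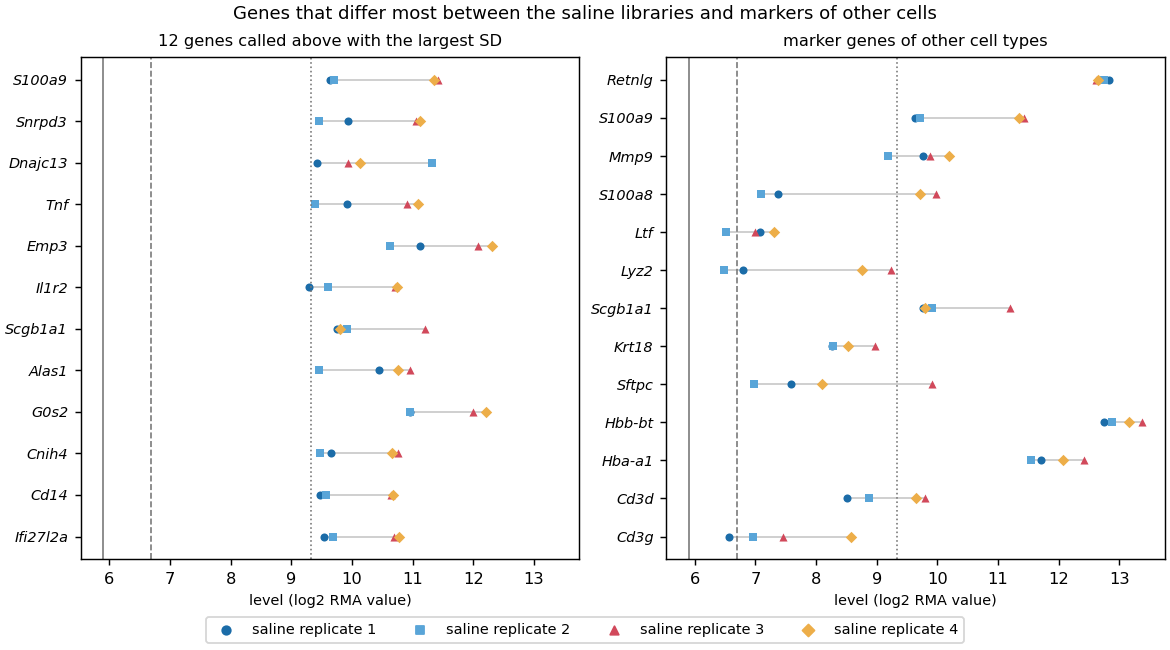
Level (log2 RMA value) in each saline library of the 12 genes called above the negative control threshold with the largest SD (left) and of marker genes of other cell types (right), with lines for the negative control median (solid), the olfactory threshold (dashed) and the negative control threshold (dotted). In 10 of the 12 genes saline replicates 3 and 4 both lie right of replicates 1 and 2, and S100a8, S100a9 and Lyz2 show the same order.

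Over 153 measured markers of other cell types, 9 were above the negative control threshold (5.88%, against 7.92% of all genes), 139 below and 31 at negative control level (20.3%, against 22.9%). These shares lay near those of all genes. No marker of T, B or NK cells, dendritic cells, mast cells and basophils, endothelium or fibroblasts was above. Kit, the mast cell growth factor receptor, read 8.01 ± 0.43, and the mast cell protease Mcpt4 lay at negative control level. The T cell chain Cd3d passed in neither direction at 8.51, 8.87, 9.80 and 9.65. Of its partners, Cd3g read 6.56, 6.96, 7.45 and 8.57, also higher in saline replicates 3 and 4, and Cd3e read 6.94 ± 0.25. Other T cell markers were lower in replicates 3 and 4, such as Cd4 (6.59, 6.37, 6.13 and 6.08). Cd28 (5.75, 5.66, 5.40 and 5.29) and Lat (6.90, 6.89, 6.71 and 6.17) had that order too. Cd8a was flat at 6.81, 6.82, 6.81 and 6.81. Cd3g, Cd4, Cd28, Lat and Cd8a were not above the olfactory threshold.

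Alveolar macrophages, which like eosinophils carry Siglecf, had 3 of 20 markers above, namely Il1rn, Ear2 and Adgre1 (11.76, 11.53, 11.75 and 11.73), all of which eosinophils are also known to express. The scavenger receptors Marco (6.10 ± 0.20) and Mrc1 (5.44, 5.47, 6.75 and 5.64), the lectin Siglec1 (6.68 ± 0.16) and the secreted Chil3 (6.26 ± 0.39) were below the negative control threshold and not above the olfactory one. The mean level of the 20 markers was 7.05, 7.00, 7.21 and 6.96 in saline replicates 1 to 4. Like Mrc1, Car4 (6.36, 6.21, 7.08 and 6.01) and Atp6v0d2 (4.83, 4.68, 5.85 and 4.58) were highest in replicate 3. Neither was above the olfactory threshold. Other markers did not have this order, such as Marco (5.96, 6.37, 5.95 and 6.13). Of 14 monocyte and macrophage markers only Cd14 was above, and none was called without saline replicate 3 or without replicate 4.

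Neutrophil markers had 2 of 12 above (against 7.92% of all genes), Retnlg and S100a9. Retnlg, a resistin-like protein secreted by granulocytes, read 12.82, 12.75, 12.62 and 12.65 (rank 37), within 0.20 across libraries. S100a8, the partner of S100a9, read 7.38, 7.09, 9.97 and 9.71, and the lysozyme Lyz2 of macrophages and neutrophils 6.80, 6.49, 9.23 and 8.76. Granule proteins made mainly by immature neutrophils stayed low, with Ltf at 6.97 ± 0.33 and Lcn2 at 6.00 ± 0.080. The mean level of the 12 markers was 7.62, 7.54, 7.92 and 7.88, higher in saline replicates 3 and 4. Without S100a8 and S100a9, the mean of the other 10 was 7.45, 7.37, 7.36 and 7.35. That split was made after the values were seen and took out the 2 genes with the widest spread. It therefore cannot test the part of neutrophil RNA. Most of the other 10, among them Ltf, Ngp, Camp and Lcn2, were not above the olfactory threshold. The markers Ly6g and Cxcr2 had no matched probe set. Retnlg, Ngp (7.19, 6.88, 6.71 and 6.38) and Camp (6.82, 6.57, 6.33 and 6.13), the last 2 granule proteins of neutrophils, were lower in replicates 3 and 4. Mmp9, of the same list, read 9.77, 9.18, 9.88 and 10.19, and was higher in replicates 3 and 4. Tnf, Il1r2, Cd14, C5ar1 and Il6 were higher there, and the part of neutrophil RNA in those genes was not tested. Only Retnlg of the 12 was called without saline replicate 3 or without replicate 4.

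Epithelial markers had 1 of 18 above (against 7.92% of all genes), Scgb1a1, at 9.76, 9.91, 11.20 and 9.80. The surfactant protein Sftpc of alveolar type 2 cells read 7.59, 6.98, 9.91 and 8.10, also highest in saline replicate 3. The mean of the 18 markers was 6.87, 6.97, 7.15 and 6.77, and Hopx of alveolar type 1 cells (5.27 ± 0.13) was at negative control level. In a bulk sorted sample, more cells of another type and more of its RNA per cell cannot be told apart.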

How the data were processed

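The authors deposited log2 values. The submitters' processing notes name RMA (robust multi-array averaging) as the tool, and its version and the set of arrays normalized together are not given in the sources used here. As RMA evens out overall differences between arrays, levels are relative within a library. The 4 saline columns of the value table were joined by probe set to the deposited annotated table, and all 35557 probe sets matched. The 7 value columns of the annotated table match no sample label and were not used. Symbols were updated through RefSeq (GRCm38.p6, names and promoters only), by accession for 16891 probe sets, symbol for 1296 and synonym for 676, while 981 kept the file's symbol and 15713 had none. For 866 genes with several probe sets the one with the highest mean was used. The table marks 5222 negative control probe sets without stating their kind.

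Gene values minus each threshold were tested with limma 3.58.1 (R 4.3.3; lmFit and eBayes, intercept only, two-sided, adjusted over 18226 genes by Benjamini-Hochberg). Simulated data for 18226 genes had 67, 67 and 66 genes set 0.5, 1 and 2 log2 above the negative control threshold. All others were set at it. Of these groups, 34.3%, 76.1% and 95.5% were called, with 2 false calls. In the data 7.92% of genes were called above and 87.2% below, so the adjustment passed larger unadjusted p than in the simulation. The simulated shares and false calls therefore do not describe the calls made on the data. Only 4 arrays limit the precision.

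The libraries and the 42 gene lists were chosen with earlier results of these data known. Genes named are the 25 highest, the defining markers, up to 5 highest and 2 lowest of each list, the 12 with the largest SD among those called above and the 6 with the smallest SD among the 4557 genes with the highest means. Others, such as Epx, Gata1, Il4, Il13, Il5, Il6, Il1rl1, Ltc4s, Lyz2 and the class II genes, were added for their known roles. Alas2, Ppbp, Cd3g, Cd4, Lat, Car4, Ngp and Camp were added for their order of libraries. All of these were chosen after their values were seen. Alternatives were other percentiles, averaged probe sets, further normalization, medians and leaving out each replicate. Most list members enter the counts without being named, and not every gene the rule would name is reported here.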

Additional observations from a re-analysis of the deposited data

Results flagged for a closer look

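Among 248 sets of 4 library values, 13 (5.24%) had 1 library far from the other 3 by Dixon's ratio (its 95% critical value), and chance alone flags about 1 in 20. Saline replicate 1 stood apart for Snap23 (12.13), Ifnar2 (11.55), Gata3 (5.60), Mcpt4 (5.23) and Rnase2a (4.60). Saline replicate 2 stood apart for the macrophage and eosinophil receptor Adgre1 (11.53), for Lcn2 (6.12), for Tslp (4.69) and for the mean level of the BCL2 family (8.27). Saline replicate 3 stood apart for the club cell protein Scgb1a1 (11.20), the class II gene H2-Ab1 (7.74), the scavenger receptor Mrc1 (6.75) and the mean level of lipid, formyl peptide, complement and histamine receptors (7.01). Saline replicate 4 stood apart in none. Of these genes, Gata3, Lcn2, Mcpt4, Mrc1, Rnase2a and Tslp had means at or under 6.00.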

How the results depend on the processing

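The number of genes called above background followed the threshold. It was 1444 at the 95th percentile of negative controls, 2394 at the 90th and 372 at the 99th, and, in settings chosen after seeing the data, 5131 at the 75th percentile and 7219 with olfactory receptor genes as background. By construction a lower threshold calls more genes. Of the 910 list genes measured, 126 were above in the main setting, 41 at the 99th percentile and 397 with olfactory receptor genes. Averaged probe sets, a further quantile normalization and centring on the median gave 1393, 1443 and 1444 genes, and leaving out each replicate gave 1329 to 1624. The rule without a model called 1391, of which 1378 were shared. Genes at negative control level numbered 4252 to 4468 when a replicate was left out. The number of genes with a range over 1 log2 was 1056, and 49 among genes called above; leaving out a replicate gave 543 to 838, the lowest without saline replicate 2. Of 1351 recomputed levels of named genes, 8 moved by more than 1 SD, all with averaged probe sets, among them Siglece (11.29), Gmfg (10.03), Ear2 (11.23) and Ear10 (11.25). After a further quantile normalization Fcgr3 and Fli1 were no longer called above. Antigenomic controls were not run, as the table marks none. No paired analysis was possible because only the saline group is described. The number of arrays and the signal of negative controls limit what can be told apart below about the 95th percentile.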
